A study of Mus musculus with 8 samples.

Results

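The genes described here encode the proteins that detect DNA damage, halt the cell cycle and repair DNA, 43 in all, taken as a fixed list of symbols and followed in mouse germinal vesicle (GV) oocytes. A probe set was counted for a gene where that gene was its only symbol in the platform annotation, by current or older name. On this rule 41 of the 43 genes had 92 probe sets, out of 18193 genes named on the array, and Trp53 and Xrcc2 had none and were not analysed here. The genes were placed in 6 classes by their known role: 9 checkpoint genes, 12 of homologous recombination, 7 of the Fanconi pathway and post-replication repair, 4 of mismatch repair, 4 of end joining and 7 of excision and single-strand break repair. The rule for membership used no measured value, though the list was chosen with earlier results of these data known.

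The study compared 4 samples of GV oocytes cultured in milrinone for 48 h with 4 samples of untreated GV oocytes, by total RNA on single-colour Affymetrix mouse arrays. Milrinone inhibits the oocyte's cAMP phosphodiesterase and so keeps the oocyte at the GV stage, with its nucleus intact. The labels give no strain, age or oocyte number and no sample cultured without the drug, so drug, culture and elapsed time cannot be told apart. Nor do they tell whether the replicates are separate collections, and each p-value reflects sample-to-sample spread that may be technical. Each array received 15 µg of cRNA, so a level is relative to the other RNA in its sample, and fewer cells of a type and less RNA per cell cannot be told apart.

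A GV oocyte is held in the first meiotic prophase for weeks to months, long after its meiotic breaks were repaired. Its checkpoint kinases Atm and Atr sense double-strand breaks and single-stranded DNA, and they signal through Chek2 and Chek1. In mouse oocytes of the primordial reserve, Chek2 activates the p63 protein TAp63, encoded by Trp63, which triggers death of damaged oocytes. Homologous recombination, led by Brca1 and Brca2, uses an intact copy of the DNA as a template, whereas end joining by the Ku proteins ligates the ends directly. The zygote relies on repair proteins and messages made by the oocyte until its own genome is transcribed.

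Many genes of DNA repair are known targets of E2F, the factor that drives genes of the cell cycle, so the promoter windows of the genes were searched for its binding letters. Windows from 250 bases before to 50 bases after the transcription start came from RefSeq on GRCm38.p6, and 35 of the 43 genes had at least 1, 41 windows in all. The letters TTTCCCGC, TTTCGCGC, TTTGCCGC and TTTGGCGC, on either strand, were in the windows of 8 of the 35 genes, or 22.9%, against 2.60% of all 27025 genes in the table. The 8 were Bard1, Brca2, Chek2, Fancg, Msh3, Msh6, Rad51c and Xrcc6. CCAAT was in windows of 19 of the 35, or 54.3%, against 41.1% of all genes, and the palindromic NRF1 consensus in 1 of the 35, Lig4, or 2.86%, against 1.07%. Of the windows with the E2F letters, 4 are shown because they span the checkpoint, recombination and mismatch classes. Capitals mark the E2F letters and CCAAT on either strand, and in Msh3 TTTGGCGC and GCGCGAAA overlap by 4 bases.
Chek2, chr5:110839733-110840032, plus strand: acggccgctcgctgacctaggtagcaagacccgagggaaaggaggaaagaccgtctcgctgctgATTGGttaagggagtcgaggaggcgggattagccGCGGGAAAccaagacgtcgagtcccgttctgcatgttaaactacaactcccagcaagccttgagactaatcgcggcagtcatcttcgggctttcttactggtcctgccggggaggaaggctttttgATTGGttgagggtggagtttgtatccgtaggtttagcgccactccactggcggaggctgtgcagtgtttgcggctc
Brca2, chr5:150522371-150522670, plus strand: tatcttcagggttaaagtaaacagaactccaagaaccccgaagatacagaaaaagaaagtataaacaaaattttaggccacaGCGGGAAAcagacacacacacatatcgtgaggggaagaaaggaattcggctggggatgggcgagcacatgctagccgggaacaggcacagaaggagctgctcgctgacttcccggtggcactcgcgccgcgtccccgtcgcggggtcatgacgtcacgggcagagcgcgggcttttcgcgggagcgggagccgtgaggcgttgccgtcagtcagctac
Msh3, chr13:92354954-92355253, minus strand: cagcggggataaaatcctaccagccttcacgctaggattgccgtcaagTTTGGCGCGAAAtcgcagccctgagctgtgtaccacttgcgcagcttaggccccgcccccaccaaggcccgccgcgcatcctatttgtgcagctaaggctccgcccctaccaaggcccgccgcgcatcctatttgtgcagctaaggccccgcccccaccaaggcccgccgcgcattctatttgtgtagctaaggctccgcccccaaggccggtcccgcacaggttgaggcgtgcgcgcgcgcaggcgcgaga
Msh6, chr17:87974800-87975099, plus strand: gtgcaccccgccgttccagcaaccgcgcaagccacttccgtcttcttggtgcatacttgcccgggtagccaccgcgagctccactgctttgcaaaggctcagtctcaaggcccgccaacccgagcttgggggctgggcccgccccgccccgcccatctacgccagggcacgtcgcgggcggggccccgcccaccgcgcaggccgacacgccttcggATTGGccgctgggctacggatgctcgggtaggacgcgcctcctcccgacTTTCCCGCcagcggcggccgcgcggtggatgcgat
A match is a description of the letters and not a binding site. All genes of the table were not matched to the repair genes in base composition or expression, and the reason for the higher shares was not tested. The 7 tested genes with the E2F letters had a median log2 difference of 0.11, milrinone minus untreated, and the 25 tested genes whose windows lacked them had a median of 0.08.

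No repair or checkpoint gene was called changed in oocytes cultured in milrinone. Deposited intensities were compared as log2(intensity + 16), and differences are given as milrinone minus untreated. Many of the deposited cells are empty, so a probe set counts as listed on an array that gives it a value, and at least 3 listed arrays per group were needed for a test. This held for 63 of the 92 probe sets, which stand for 38 genes. Of the 63, 0 passed limma at an adjusted p under 0.05, where 0.117% of all 16288 tested probe sets did, and the smallest adjusted p was 0.494. At an unadjusted p under 0.05 there were 2 of the 63, or 3.17%, 1 of Fancm and 1 of Chek1, both higher in milrinone. Over all tested probe sets 9.63% had such a p, and 5.62% had it with milrinone higher.

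With the brightest tested probe set standing for each gene, the 38 differences ran from -0.25 for Parp1 to 0.36 for Fancm, with a median of 0.08, beside 0.06 over all tested probe sets. At the deposited scaling, the 95% interval of each of the 38 lay within 1 log2 unit of 0, that is within 2-fold. Over probe sets this held for 62 of the 63, or 98.4%, all but 1424630_a_at of Brca1, against 90.4% of all tested probe sets. For 22 of the 38 genes the interval lay within 0.5 log2 units of 0. The class medians were 0.08 for checkpoint genes (6 tested), 0.10 for homologous recombination (11), 0.17 for the Fanconi and post-replication class (7), 0.06 for mismatch repair (3), 0.02 for end joining (4) and 0.11 for excision and single-strand break repair (7).

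**Figure D1:**
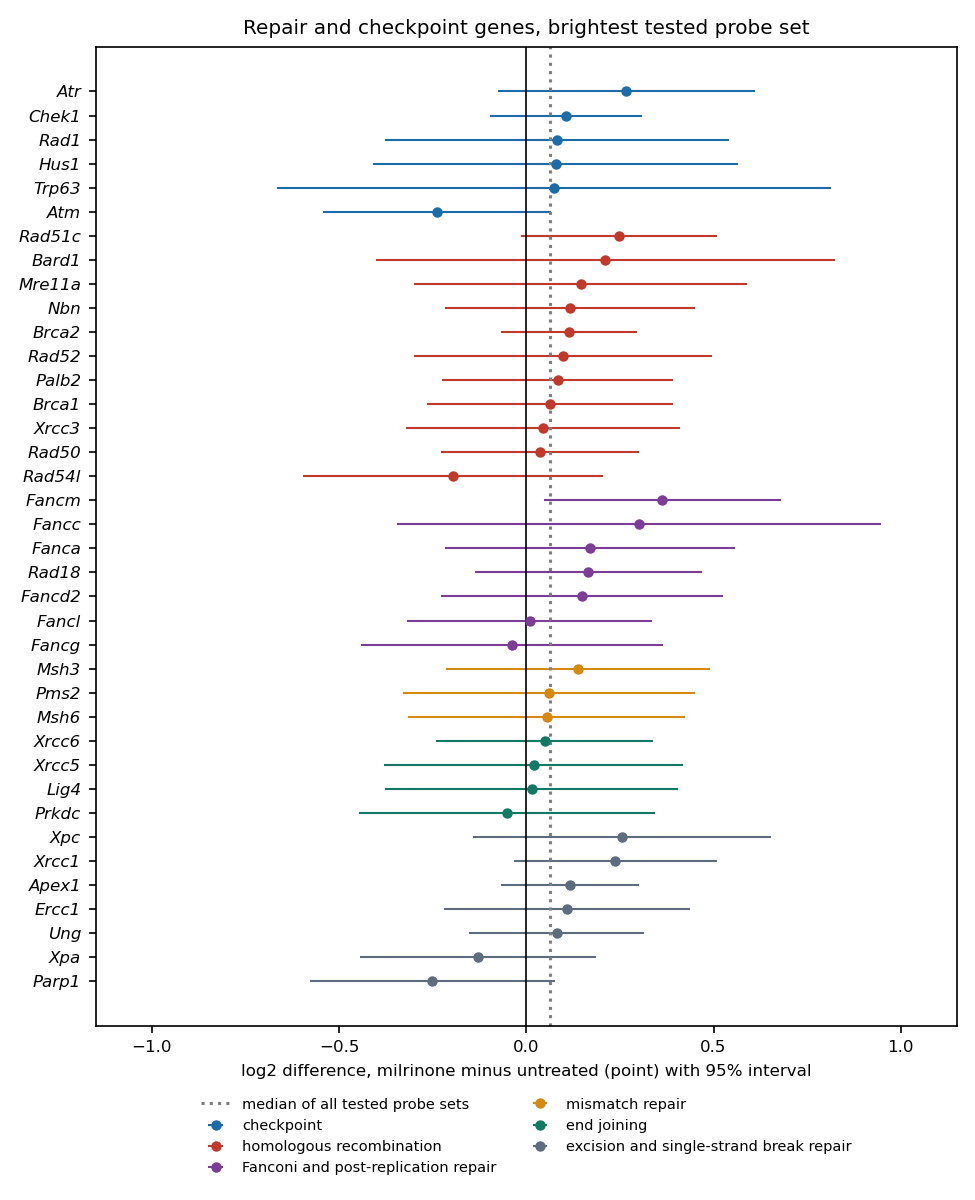
The log2 difference, milrinone minus untreated, of the brightest tested probe set of each of 38 genes (points) with its 95% interval from limma (lines), coloured by class. At the deposited scaling the intervals lie within 1 log2 unit of 0, and the points gather near the median of all tested probe sets, 0.06 (dotted line).

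Of the 63 tested probe sets 47 lay above 0, or 74.6%, against 62.0% of all tested probe sets, and of the 38 genes by their brightest probe set 32 did, or 84.2%. Among all tested probe sets of at least median brightness the share was 66.1%. The counts of the 63 and of the 38 changed when 1 array was left out. Untreated 1 gave the lowest value of 20 of the 37 genes listed on all 8 arrays, where it was lowest for 39.6% of all probe sets so listed. The median deviation of the 37 genes from their own means was -0.26 on untreated 1, while the milrinone arrays lay between -0.01 and 0.11 and the remaining untreated arrays between 0.01 and 0.07. Without untreated 1, 32 of the 63 probe sets lay above 0, or 50.8%, against 55.3% of all tested probe sets. Of the 38 genes 21 then lay above 0, and their median was 0.01. The excision class had a median deviation of 0.01 on untreated 1, while the other classes lay between -0.34 and -0.18 there. Over all probe sets listed on 8 arrays the median deviation on untreated 1 was -0.17.

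Untreated 1 also had the most signal of somatic cells. The intensities of 45 probe sets of cumulus, granulosa and theca markers summed to 2861 to 4005 on the milrinone arrays, against 22338 to 24917 on untreated 2, 3 and 4 and 98088 on untreated 1. The arrays listed 11 to 19 of these probe sets in milrinone and 25 to 35 in untreated samples. Of the 21 marker genes, Amhr2, Cyp17a1, Fst, Star and Tnfaip6 had no value on any milrinone array and Amh had none on any array. Gja1, a gap junction gene, and Grem1, a cumulus gene, were the 2 that passed limma, both lower in milrinone, at -4.91 and -4.67 (adjusted p = 0.0109 and 0.0048). Hsd17b1, a gene of steroid synthesis, had the next smallest p, at -2.48 (adjusted p = 0.456, and 0.0488 without untreated 1, limma). Of the 7 tested genes 6 lay below 0, with Kitl at -0.08, and Cyp11a1 lay above, at 0.29. Another Cyp11a1 probe set, 1448804_at, was empty in milrinone, against 576 to 9664 in untreated samples. The brightest Nr5a2 probe set alone had 836 to 1193 in milrinone. By their most often listed probe sets, Has2 and Ptx3 had values on 2 arrays of each group, and Ptgs2 on 2 milrinone and 1 untreated. Markers of blood, stroma and endothelium summed to 624 to 784 in milrinone and to 1481 to 10099 in untreated samples, the most on untreated 1. Of the 4 tested genes among them 0 passed, and Cd68, Adgre1 and Kdr had the smallest p, at -0.34, -0.29 and -0.15. The oocyte markers, with 17 of 18 probe sets listed on every array, summed to 167257 to 179414 in milrinone and to 163936 to 192145 in untreated samples. Of the 14 tested oocyte genes 0 passed, and Zp2, Zp3 and Figla had the smallest p, at -0.10, -0.07 and 0.23. Correlated with each of the other arrays, untreated 1 had a median of 0.930, and the remaining arrays 0.966 to 0.980. The part of somatic RNA in the values below was not tested.

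**Figure D2:**
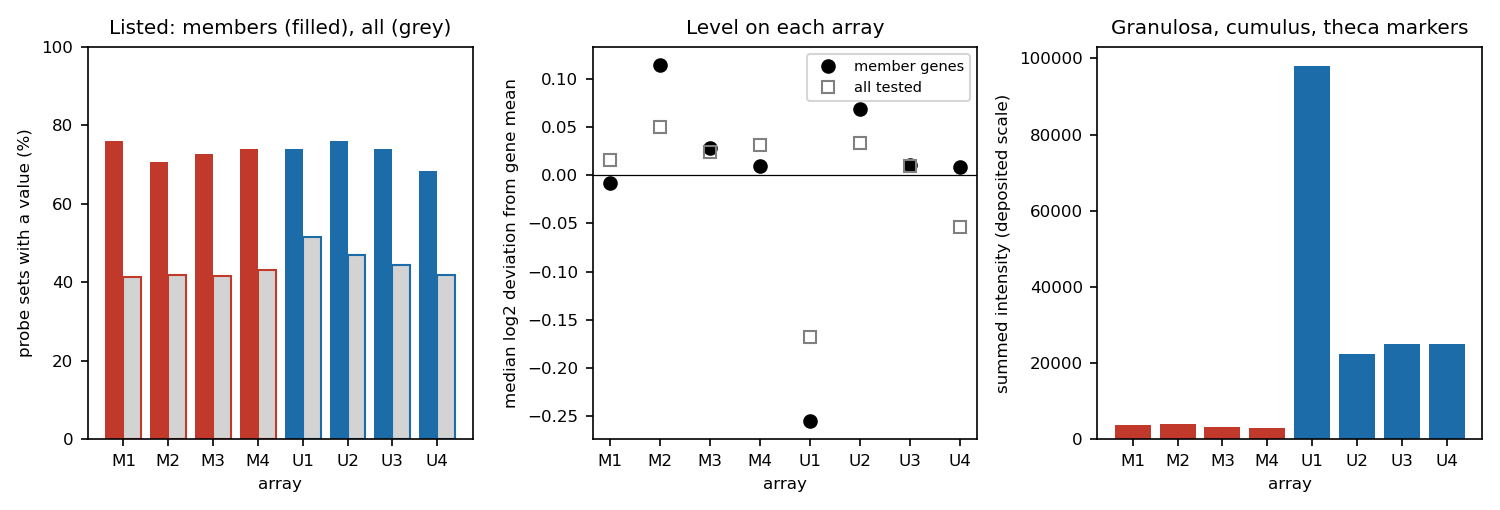
For each array (M milrinone, U untreated), the percent of probe sets with a value among the 92 of the repair and checkpoint genes and among all probe sets (left), the median log2 deviation of 37 genes and of all probe sets listed on 8 arrays from their own means (middle), and the summed intensity of 45 granulosa, cumulus and theca probe sets (right). Untreated 1 has the lowest middle points and the tallest bar at right.

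The repair and checkpoint probe sets were listed about equally in both groups. The milrinone arrays listed 70, 65, 67 and 68 of the 92, and the untreated arrays 68, 70, 68 and 63, for replicates 1 to 4. Over all probe sets that are not controls, 41.2% to 43.1% were listed on milrinone arrays and 41.9% to 51.6% on untreated arrays. Of the 92, 15 were empty on all 8 arrays and 14 more had too few values to be tested. The 3 genes with a probe set but no test were Chek2, Rad9a and Mlh3, and empty cells do not bound their signal.

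**Figure D3:**
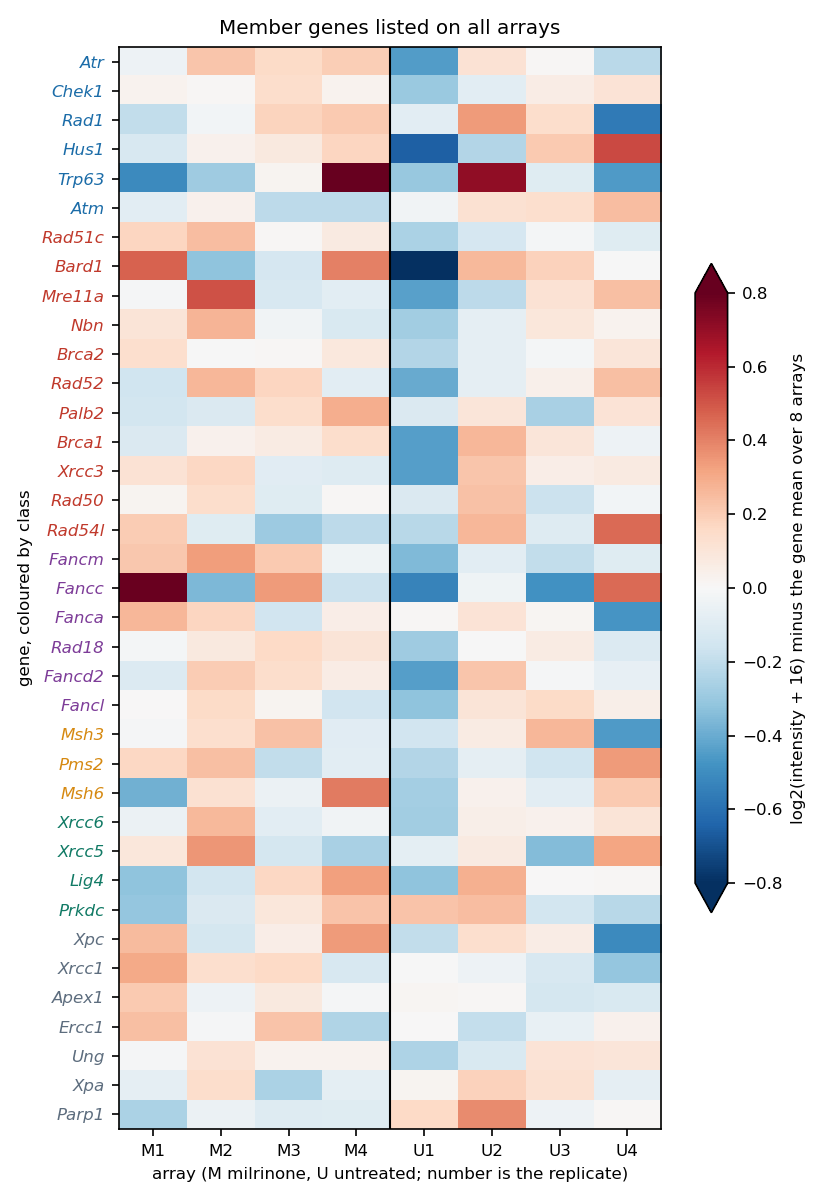
Deviation of log2(intensity + 16) from each gene's mean over the 8 arrays (colour), for 37 genes listed on all arrays, with milrinone arrays left of the line. Untreated 1 is the bluest column, and Hus1, Trp63, Bard1 and Fancc vary most between arrays of one group.

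Among the checkpoint genes, Chek1, the kinase that Atr activates, had 4 tested probe sets and all lay above 0. Its brightest, 1449708_s_at, had 8009, 7882, 8648 and 8005 in milrinone, against 6385, 7409, 8161 and 8456 in untreated samples, and differed by 0.11 (SE 0.09, adjusted p = 0.683, limma). The groups overlapped. Probe set 1439208_at had 3225, 3517, 3659 and 3331 in milrinone, against 1988, 2911, 3553 and 2785 in untreated samples, a difference of 0.32 (95% interval -0.03 to 0.66). Untreated 3 reached the milrinone range there and the other untreated arrays lay below it. The dimmer 1420032_at, with 337 ± 28.6 in milrinone and 244 ± 62.4 in untreated samples (SD, n = 4 each), differed by 0.47 (0.05 to 0.88, adjusted p = 0.495, limma). Without untreated 1 the differences of these 3 probe sets were 0.02, 0.16 and 0.39, and that of 1450677_at, 0.11 over all arrays, was -0.04.

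Chek2, which acts downstream of Atm, was listed on all untreated arrays and on 2 of 4 milrinone arrays. Its single probe set had 44.9 and 47.7 on milrinone 1 and 4, against 125, 58.6, 77.3 and 47.7 in untreated samples. The highest value was on untreated 1, the array with the most granulosa marker signal. Untreated 2, 3 and 4 had similar marker sums, 22338 to 24917, and differed in Chek2, and a somatic share of its signal was not tested. The lowest untreated value equalled the higher milrinone value to 3 digits. No fold is given, since the other milrinone cells were empty. Rad9a, a subunit of the 9-1-1 clamp that loads at damage, was listed on untreated 1 alone, at 165.

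Both apical kinases were measured, with point values on opposite sides of 0. Atm had 145, 159, 132 and 132 in milrinone, against 152, 170, 172 and 187 in untreated samples, a difference of -0.24 (-0.54 to 0.07). Its second tested probe set differed by -0.09. Atr had 769, 926, 881 and 909 in milrinone, against 576, 858, 797 and 680 in untreated samples, a difference of 0.27 (-0.08 to 0.61). For each gene the groups overlapped and the adjusted p of limma was 0.565 and 0.566. Without untreated 1 the differences were -0.29 and 0.16.

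The other clamp subunits, Hus1 and Rad1, differed by 0.08 each. Hus1 had 2040, 2279, 2354 and 2507 in milrinone, against 1408, 1891, 2574 and 3215 in untreated samples. The untreated arrays thus lay on both sides of the milrinone arrays, with an SD of 790 against 195 in milrinone. The second probe set of Hus1 spread alike, from 290 to 351 in milrinone and from 182 to 722 in untreated samples, with the arrays of the untreated group in the same order.

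Trp63 had 181, 215, 269 and 516 in milrinone, against 211, 443, 246 and 189 in untreated samples, a difference of 0.07 (-0.67 to 0.81). Milrinone 4 and untreated 2 each stood above the other 3 arrays of their group, and the SD within milrinone, 0.63 on the log2 scale, was the widest of the 37 genes. The dimmer 1452027_a_at had 88.3 to 102 in milrinone and 65 to 103 in untreated samples and was not highest on milrinone 4 or untreated 2. Another probe set, 1451876_a_at, was listed on all milrinone arrays at 184, 251, 223 and 154 and on untreated 1 and 3 at 97.3 and 172, and was not tested.

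**Figure D4:**
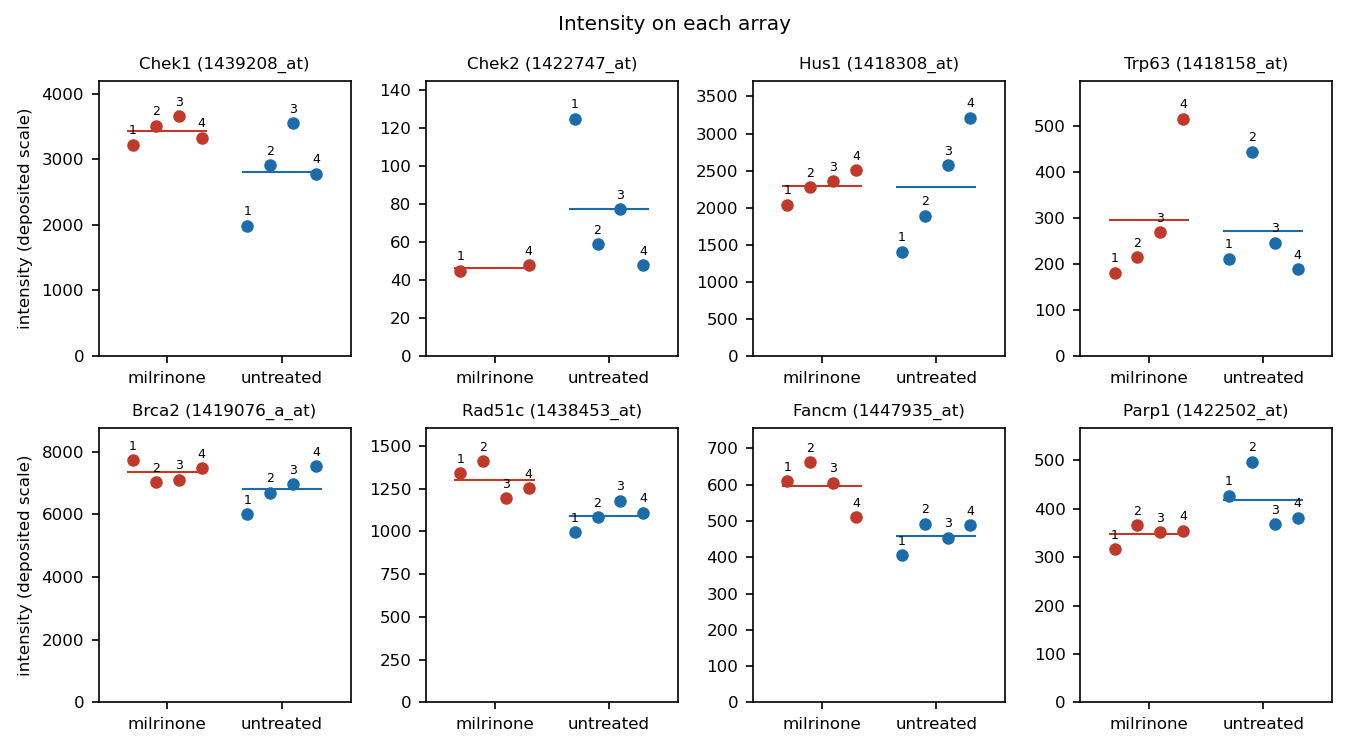
Deposited intensity of 1 probe set of each of 8 genes on each milrinone and untreated array (points, numbered by replicate) with the group mean (line); empty cells have no point. Fancm and Rad51c are higher on all 4 milrinone arrays and Parp1 is lower, while the groups of the others overlap or, for Chek2, are listed in part.

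Homologous recombination had 11 tested genes, 10 of them above 0, with a median of 0.10 that was 0.0051 without untreated 1. Brca2, a tumour suppressor of the same pathway, had 7730, 7030, 7107 and 7476 in milrinone, against 5999, 6692, 6958 and 7528 in untreated samples, a difference of 0.11 (-0.07 to 0.30). The milrinone values all lay above the lowest 3 untreated values. Brca1, the ubiquitin ligase partner of Bard1, had 2303, 2556, 2616 and 2753 with its brightest probe set in milrinone, against 1833, 2998, 2666 and 2423 in untreated samples, and differed by 0.06 (-0.26 to 0.39). The 3 dimmer probe sets of Brca1 gave -0.29, 0.27 and -0.51, so the gene's probe sets disagreed in sign. The lowest of these, 1424630_a_at, had 34.3, 72.5 and 48.7 on milrinone 1, 2 and 4 and 95.6, 57.6 and 86.2 on untreated 2, 3 and 4 (adjusted p = 0.531, limma).

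Rad51c, which acts in homologous recombination, was higher on every milrinone array than on any untreated array with its brightest probe set. It had 1340, 1413, 1196 and 1254 in milrinone, against 994, 1085, 1179 and 1111 in untreated samples, a difference of 0.25 (-0.01 to 0.51, adjusted p = 0.516, limma). A second probe set of Rad51c had 228 to 380 in milrinone and 166 to 335 in untreated samples, differed by 0.07 and overlapped. Groups did not overlap, with milrinone higher, for 3 of the 63 probe sets, or 4.76%, against 5.06% of all tested probe sets, and with milrinone lower for 1, or 1.59%, against 2.74%. These were Fancm, Rad51c and the 1427698_at probe set of Brca1 (3 untreated values) on the higher side and Parp1 on the lower. The exact two-sided permutation p of Fancm, Rad51c and Parp1 was 0.0286, the smallest that 4 against 4 can give. Any 2 groups of 4 values that do not overlap give this p, so it adds nothing to the lack of overlap.

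The break-binding complex of Mre11a, Rad50 and Nbn differed by 0.14, 0.04 and 0.12. Palb2, which joins Brca1 to Brca2, differed by 0.08, Bard1 by 0.21, Xrcc3 by 0.05 and the annealing factor Rad52 by 0.10. Bard1 had 174 on untreated 1, against 330 to 399 on untreated 2, 3 and 4, and without untreated 1 the differences of Bard1, Xrcc3 and Rad52 were -0.04, -0.09 and -0.02. The translocase Rad54l lay below 0, at -0.20, with 800 to 1129 in milrinone and 840 to 1345 in untreated samples. A probe set of Rad54l marked as open to cross-hybridisation by its suffix, 1423124_x_at, gave 0.14, and the remaining tested one, 1423123_at, gave -0.17.

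In the Fanconi pathway, which repairs crosslinks between DNA strands, Fancm had the smallest unadjusted p of the 63 probe sets. This translocase, which recruits the core complex, had 609, 662, 605 and 510 in milrinone, against 405, 492, 453 and 488 in untreated samples, a difference of 0.36 (SE 0.14, unadjusted p = 0.0281, adjusted p = 0.494, limma). All milrinone arrays lay above all untreated arrays. The 2 dimmer probe sets of Fancm overlapped and differed by -0.18 and 0.17, and the first of these had 541 on untreated 4, against 157 to 203 on the other untreated arrays. Without untreated 1 the 3 differences were 0.31, -0.37 and -0.10.

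The ubiquitin ligase gene Fancl had 798, 887, 810 and 715 in milrinone, against 636, 856, 890 and 823 in untreated samples, a difference of 0.01 (-0.32 to 0.34). Its target Fancd2 differed by 0.15 and by 0.01 with its 2 tested probe sets, and Fanca, Fancc and Fancg of the core complex by 0.17, 0.30 and -0.04. Fancc had 323 to 735 in milrinone and 284 to 579 in untreated samples. Rad18, the ligase that marks the replication clamp at stalled forks, had 517, 553, 586 and 561 in milrinone, against 426, 522, 547 and 483 in untreated samples, a difference of 0.17 (-0.14 to 0.47). Its 3 tested probe sets ranged from 0.09 to 0.22.

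Mismatch repair was represented by Msh3 and Msh6, which recognise loops and mispairs, and by Pms2, which nicks the strand to be corrected. Msh6 had 2707, 3860, 3432 and 4735 in milrinone, against 2928, 3633, 3344 and 4102 in untreated samples, a difference of 0.05 (-0.32 to 0.42). The milrinone arrays spanned the whole untreated range. Msh3 had 1844, 2041, 2185 and 1743 in milrinone, against 1665, 1945, 2231 and 1349 in untreated samples, a difference of 0.14 (-0.22 to 0.49). A second probe set of Msh3 gave -0.24, with 84.8 to 112 in milrinone and with 84.6 to 94.9 on untreated 1, 2 and 3 and 282 on untreated 4, and another was listed on 3 milrinone arrays at 41.3 to 73.3 and on untreated 3 at 45.3. Pms2 had 437, 462, 337 and 365 in milrinone, against 328, 369, 347 and 497 in untreated samples, a difference of 0.06. Mlh3, the partner in meiotic crossing over, was listed on 2 milrinone arrays at 69.6 and 107 and on 3 untreated arrays at 73.8 to 109.

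The end joining genes had a class median of 0.02, and -0.020 without untreated 1. Xrcc6, which encodes Ku70, had 1549, 1921, 1512 and 1569 in milrinone, against 1320, 1656, 1639 and 1720 in untreated samples, a difference of 0.05 (-0.24 to 0.34). Its partner Xrcc5, for Ku80, differed by 0.02. Lig4, the ligase that seals the ends, had 1148, 1294, 1614 and 1810 in milrinone, against 1145, 1750, 1442 and 1445 in untreated samples, a difference of 0.01 (-0.38 to 0.41). Prkdc, the kinase that Ku recruits, had 351, 402, 467 and 516 in milrinone, against 515, 523, 394 and 373 in untreated samples, a difference of -0.05 (-0.45 to 0.34). For each of the 4 genes the groups overlapped.

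In excision and single-strand break repair the data ran both ways. Apex1, the endonuclease that cuts at sites without a base, had 6345, 5333, 5788 and 5453 in milrinone, against 5559, 5536, 4978 and 5041 in untreated samples, a difference of 0.12 (-0.07 to 0.30). Its 3 probe sets lay between 0.05 and 0.12. Of these, the brightest, 1437715_x_at, and 1456079_x_at are marked by their suffix as open to cross-hybridisation. Ung, which removes uracil from DNA, had 3039, 3313, 3121 and 3121 in milrinone, against 2576, 2810, 3301 and 3278 in untreated samples, a difference of 0.08 (-0.15 to 0.31). Xrcc1, the scaffold of single-strand break repair, had 2831, 2519, 2566 and 2100 in milrinone, against 2287, 2231, 2096 and 1849 in untreated samples, a difference of 0.24 (-0.03 to 0.51, adjusted p = 0.534, limma). Only milrinone 4 lay within the untreated range.

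Parp1, which senses strand breaks and is itself an abundant nuclear protein, was lower on every milrinone array than on any untreated array with its brightest probe set. It had 316, 366, 351 and 354 in milrinone, against 426, 497, 368 and 382 in untreated samples, a difference of -0.25 (-0.58 to 0.08, adjusted p = 0.569, limma). The gap between the groups was small, 366 on milrinone 2 against 368 on untreated 3. The other 2 tested probe sets overlapped, differed by -0.14 and -0.11 and were highest on untreated 1, at 513 and 362. Without untreated 1 the 3 differences were -0.24, -0.01 and -0.01. Of the nucleotide excision genes, the damage sensor Xpc differed by 0.26, the nuclease subunit Ercc1 by 0.11 (a second probe set by -0.14) and Xpa by -0.13.

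**Figure D5:**
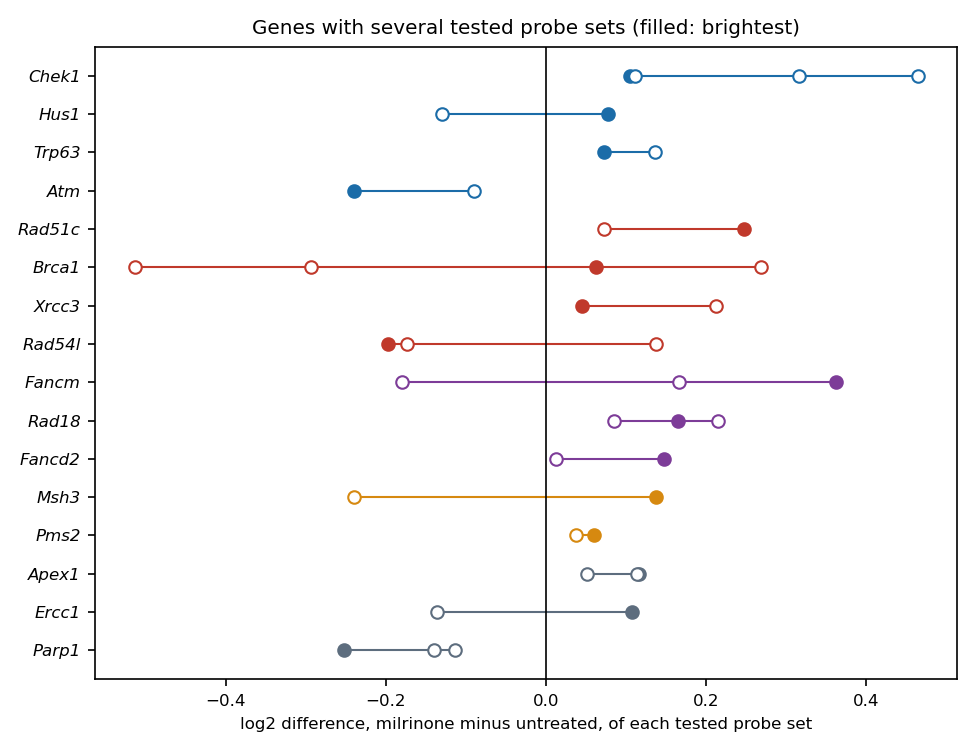
The log2 difference, milrinone minus untreated, of each tested probe set of the 16 genes that had several (filled point, the brightest; line, the range). Brca1 and Fancm span the widest ranges, 0.78 and 0.54, and 6 of the 16 genes have probe sets on both sides of 0.

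Probe sets of the same gene gave different values. Neither the reason nor whether they differed by more than the spread between replicates was tested. Of the 16 genes with several tested probe sets, 6 had differences of both signs, namely Brca1, Fancm, Msh3, Rad54l, Ercc1 and Hus1. The range within a gene ran from 0.02 for Pms2 to 0.78 for Brca1. Replicates within a group had a median SD of 0.16 on the log2 scale in milrinone and 0.25 in untreated samples over the 37 genes, against 0.16 and 0.27 over all probe sets listed on 8 arrays. Without untreated 1 the untreated median for the genes was 0.15. These SDs are of single arrays, so they are not the same measure as a range of group differences.

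Further genes of the same pathways, which are not among the 43, did not pass either. Of 43 tested of 60 other repair genes, 0 passed limma, 5 had an unadjusted p under 0.05, all higher in milrinone, and the median was 0.16. These 5 are 11.6% of the 43, against 5.62% of all tested probe sets. Without untreated 1 the median was 0.07 and the count was 2, where 691 of all 16288 probe sets had such a p with milrinone higher. Of these 43 other genes 36 lay above 0, or 83.7%, and 34 without untreated 1, or 79.1%. Over all tested probe sets the shares were 62.0% and 55.3%. Those shares count every tested probe set, dim ones included, and not 1 bright probe set per gene. Among probe sets of at least median brightness 66.1% lay above 0 over all arrays. The 3 with the smallest p were Ogg1, the glycosylase for oxidised guanine, at 0.76 (adjusted p = 0.472), Pms1 at 0.37 and the helicase gene Wrn at 0.35 (adjusted p = 0.494 each, limma). Ogg1 had 266, 236, 222 and 114 in milrinone, against 111, 118 and 106 on untreated 1, 2 and 4, so milrinone 4 lay within the untreated range. Of 14 tested of 16 other checkpoint genes, 0 passed limma and the median was 0.03, or -0.06 without untreated 1. An unadjusted p under 0.05 with milrinone higher was found for 1 of the 14, or 7.14%, against 5.62% of all tested probe sets, and for 0 without untreated 1. Hormad1, a meiotic axis protein, differed by 0.52, the phosphatase gene Ppm1d by 0.39 and the Chek1 adaptor Clspn by 0.29 (adjusted p = 0.512, 0.514 and 0.516, limma).

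Targets of the p53 family were sparsely listed. Only 5 of 14 had a tested probe set, 0 passed limma, and the median was 0.05. By brightest probe sets Sesn1, an inhibitor of growth signalling, had the smallest p. Its brightest had 119 to 231 in milrinone, against 660, 295 and 289 on untreated 1 to 3, a difference of -1.0 (-1.72 to -0.28, adjusted p = 0.460, limma). The groups did not overlap and the highest value was on untreated 1, without which the difference was -0.62 (adjusted p = 0.591, limma). Sesn1 had further tested probe sets, whose values are not given here. Ccng1 differed by -0.21 with its brightest probe set and by -1.08 with the dimmer 1420827_a_at (adjusted p = 0.494, limma), and Tigar by 0.22. The dimmer Ccng1 probe set had 50.5 to 68.1 in milrinone, against 96.5 to 103 on untreated 2, 3 and 4 and 487 on untreated 1, without which it differed by -0.55 (adjusted p = 0.252, limma). Of the 10 proliferation markers 8 were tested, with a median of 0.11 and 0 passing, and Mcm5, Ccna2 and Mcm2 had the smallest p, at 0.20, 0.19 and 0.17. Ccnd2, a cyclin gene also active in granulosa cells, was not among the 8, since none of its 7 probe sets was listed on more than 2 milrinone arrays. Its 1416122_at was empty on every milrinone array, against 1627, 1001, 965 and 1683 in untreated samples, and 1434745_at had 74.6 on milrinone 1 alone, against 882 to 1475 in untreated samples.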

How the data were processed

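Total RNA of 4 milrinone and 4 untreated samples was hybridised to single-colour arrays with 45101 probe sets. The authors deposited linear intensities, never negative, with many cells empty. How they were scaled, with which software, and why cells are empty is not given in the sources consulted. Control probe sets were left out, which kept 45037, of which 34945 had 1 gene symbol, 932 several and 9160 none. The deposited scaling was kept and empty cells were left out. Values were tested as log2(intensity + 16), a scale that understates changes of dim probe sets, with limma 3.58.1 (lmFit and eBayes with a trend, R 4.3.3) and Benjamini-Hochberg adjustment over 16288 probe sets, threshold 0.05, after a test on simulated data. The brightest tested probe set stood for a gene.

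The members and all lists were chosen with earlier results of these data known. Values on every array are given for the 2 brightest genes and the 2 with the smallest p in each class, for Trp63, Chek2, Atm, Brca1 and Brca2 (and Trp53, which had no probe set), for genes listed mostly in one group, and for those whose probe sets disagree by over 0.5. Of the other lists, the 3 genes with the smallest p and those that passed are named. Further examples were chosen after their values were seen. Alternatives covered scaling, pseudocounts of 1 and 64, filters, empty cells at 0, array weights, trend, replicate block and each array left out.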

Additional observations from a re-analysis of the deposited data

Results flagged for a closer look

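Xrcc6 had 1921 on milrinone 2, against 1512 to 1569 on the other milrinone arrays, and the gap to its nearest neighbour was 0.845 of the group's range on the log2 scale, past Dixon's 95% critical value for 4 samples. It was the only 1 of 42 groups of 4 values examined that did so, where chance gives about 1 in 20, or 2.1 of 42. Without milrinone 2 the Xrcc6 difference was -0.03, in place of 0.05.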

How the results depend on the processing

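Of the 63 probe sets of repair and checkpoint genes, 0 were called changed under each of the 22 settings compared, and the smallest adjusted p of limma among them was 0.268, for Fancm with array weights. The count over all probe sets, 19, became 53 with centring on ribosomal proteins, 12 with probe sets listed on all 8 arrays, 6 with brighter probe sets, 5 with empty cells at 0, 106 with array weights, 85 without untreated 1 and untreated 4 together (chosen after the data were seen), and from 9 (without milrinone 3) to 69 (without untreated 1) with 1 array left out. Ribosomal centring put the median of all probe sets at 0.25 in place of 0.06, and that of the 38 genes at 0.26. The class medians were then 0.26 for checkpoint, 0.28 for homologous recombination, 0.35 for the Fanconi class, 0.24 for mismatch repair, 0.20 for end joining and 0.29 for excision. The upper 95% limit of Fancc was already 0.946 at the deposited scaling, and an upward shift of this kind could carry it past 1. The 2-fold bound on the 38 genes is therefore given for the deposited scaling only. Without untreated 1 and untreated 4 together the checkpoint median was -0.074 and the Fanconi median 0.021, and with brighter probe sets the Fanconi median was 0.0091. With 1 array left out the median of the 38 genes ran from 0.013 to 0.13, and the class medians from 0.0041 to 0.15 for checkpoint, 0.0051 to 0.14 for homologous recombination, 0.098 to 0.23 for the Fanconi class, -0.0074 to 0.16 for mismatch repair, -0.038 to 0.059 for end joining, 0.062 to 0.14 for excision. Counted as 1 probe set per gene, the arrays listed 40, 38, 38 and 40 genes in milrinone and 41, 40, 40 and 38 in untreated samples.

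Among the named genes 43 values changed sign and 391 did not, and none of these genes passed the test. Values of the other sign were Msh6 -0.020, Brca1 -0.011, Xrcc6 -0.026, Lig4 -0.061, Fancl -0.066, Pms2 -0.015 and Trp63 -0.0013 when centred on the median, Brca1 -0.057, Hus1 -0.016, Msh3 -0.014, Xrcc6 -0.032, Lig4 -0.014, Fancl -0.097, Prkdc 0.027 and Trp63 -0.043 with array weights, Lig4 -0.026 and Fancl -0.016 with quantile normalization and Prkdc 0.13 with ribosomal centring. Without untreated 1 and untreated 4 together they were Brca1 -0.15, Msh3 -0.098, Xrcc6 -0.015, Lig4 -0.14, Fancl -0.12 and Trp63 -0.27. With 1 array left out the differences ran from -0.075 to 0.19 for Msh6, -0.073 to 0.16 for Brca1, -0.13 to 0.27 for Hus1, -0.036 to 0.090 for Xrcc6, -0.094 to 0.12 for Lig4, -0.096 to 0.063 for Fancl, -0.14 to 0.042 for Prkdc, -0.0097 to 0.18 for Pms2 and -0.22 to 0.32 for Trp63, and leaving out untreated 1 turned the sign of 9 of these genes. The cause was not tested.

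Same-numbered arrays did not deviate together (correlations 0.03, -0.20, -0.024 and -0.27), so the numbers were not taken as pairs. With the replicate block 13 probe sets changed over all, in place of 19, and 0 among the repair and checkpoint genes. Precision is limited by having 4 arrays a group, and an empty cell bounds no level.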
